A study of Mus musculus with 26 samples.

Results

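Internal switch deletions within Sγ3 were described in 13 CSR-HTGTS libraries that had been amplified from a bait primer at the 5′ edge of Sγ3. CSR-HTGTS sequences genomic DNA from such a primer, so that each read gives a bait end, where the baited region was broken, and a prey end, to which it was joined. A junction was taken as a member when its prey lay on chromosome 12 between 114588000 and 114620999 (mm9) on the minus strand, the orientation in which the locus is transcribed, so that a join to a prey downstream of the bait end removes the DNA in between. This rule found 40920 junctions among the 777800 junctions of the 26 libraries of the series, and among 519292 junctions of the 13 Sγ3-bait libraries. The A150 libraries held 40745 of them and the WT libraries 175. These are called members below, and those that removed at least 1 bp, 40339 in A150 and 142 in WT, are called internal deletions.

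The DNA came from CD43- splenic B cells of young adult mice of 129Sv background. A150 mice were homozygous for an allele in which the Iγ3 promoter is replaced by a cassette with a VH promoter, a rearranged VDJ exon and the Eµ enhancer, so that Sγ3 is under the control of an ectopic Eµ. IgM expression is impaired on this allele and the receptor of the developing B cells is IgG3, a limit of the line as a model. Cells were stimulated for 96 h with aCD40/IL4 (anti-CD40+IL4) or with aCD40/IL4/IL5/TGFb/b-Lys (anti-CD40+TGF-β), both of which contain anti-CD40 and IL4. The Sγ3 bait was used on 3 A150 and 3 WT libraries for anti-CD40+IL4, and on 4 A150 and 3 WT libraries for anti-CD40+TGF-β. The study's legends count independent mice, although the labels do not say which library came from which mouse.

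Class switch recombination replaces the constant region of an antibody by joining breaks in 2 switch regions, which are long stretches of short repeats upstream of the constant genes. The breaks are started by the cytidine deaminase AID, which favours the tetramer AGCT because it places a preferred site on both DNA strands. When both breaks fall within the same switch region, their joining shortens that region and leaves the isotype unchanged, and this product is an internal switch deletion. Breaks are sealed by classical non-homologous end-joining, which tolerates blunt ends, or by alternative end-joining, which more often uses bases shared by both ends, termed micro-homology (MH).

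Depth separated the genotypes. Each A150 library held from 44791 to 101020 junctions and from 4528 to 7869 members, whereas each WT library held from 2883 to 12151 junctions and from 18 to 42 members, of which 13 to 39 were internal deletions. The window set over the IgH locus on chromosome 12 held from 75.6% to 95.5% of the junctions of A150 libraries and from 0.255% to 2.71% of those of WT libraries. According to the read names, every anti-CD40+IL4 library was sequenced on 1 run and every anti-CD40+TGF-β library on another. Stimulation and sequencing run therefore cannot be told apart. No member carried the pipeline's marks for low mapping quality, duplicates or sequential junctions.

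The sequence in which these deletions arose was rebuilt from the aligned bases of the deposited A150 reads. It is given from the start of the bait alignments at 114606329, and all distances below are counted downstream from that base in the direction of transcription. In the 3517 positions with 50 reads or more, the commonest read base was the base aligned as matching the build wherever any read matched. A position at which no read matched would not show as a difference in this check. The stretch that holds the bait start and every bait end covers chr12:114606116-114606329 on the minus strand. It is printed 5′ to 3′ with its 7 AGCT tetramers in capitals, because deletions start here.
bait stretch: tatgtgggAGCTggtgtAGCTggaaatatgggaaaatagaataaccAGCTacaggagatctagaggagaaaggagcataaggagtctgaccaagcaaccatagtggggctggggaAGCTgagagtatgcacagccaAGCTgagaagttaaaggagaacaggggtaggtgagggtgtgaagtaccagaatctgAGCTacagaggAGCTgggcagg

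Farther downstream the sequence was made of tandem units. The next lines give 6 consecutive units from chr12:114605438-114605725 on the minus strand, 604 to 891 bp from the bait start, with AGCT in capitals. They are shown because 3 of the 5 most used prey intervals overlap them. Each unit was started at the first AGCT within a set range of distances from the previous start, which was found 47 to 49 bp after it. The unit lengths are limited by that range.
unit 1: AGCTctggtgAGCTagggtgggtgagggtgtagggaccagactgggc
unit 2: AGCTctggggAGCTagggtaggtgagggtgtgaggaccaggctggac
unit 3: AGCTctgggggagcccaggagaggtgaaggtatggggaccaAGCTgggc
unit 4: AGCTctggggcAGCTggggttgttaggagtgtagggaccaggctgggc
unit 5: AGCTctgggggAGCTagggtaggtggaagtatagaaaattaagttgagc
unit 6: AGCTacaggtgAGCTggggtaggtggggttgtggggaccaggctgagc

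The units were 47, 47, 49, 48, 49 and 48 bp long. Between 300 and 2799 bp, the rebuilt sequence matched itself at 44.9% of positions when shifted by 48 bp, at 42.4% when shifted by 96 bp and at 39.3% when shifted by 144 bp. The median over all shifts from 1 to 160 bp was 31.1%.

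Members took 8.69%, 8.16% and 6.92% of IgH junctions in the 3 A150 libraries for anti-CD40+IL4, a mean of 7.92% ± 0.906 (SD, n = 3). They took 13.5%, 13.3%, 12.9% and 11.4% in the 4 A150 libraries for anti-CD40+TGF-β, a mean of 12.8% ± 0.98 (SD, n = 4). Every anti-CD40+TGF-β library lay above every anti-CD40+IL4 library, and the difference of 4.86 percentage points gave p = 0.0286 in a 2-sided exact permutation test, the smallest value that 35 splits allow, and 0.2 after adjustment over the 7 stimulation tests. The difference was 7.7 points without junctions marked for low mapping quality and 2.46 points with all junctions as the denominator. In the shallowest of the 7, the Wilson 95% interval ran from 12.6% to 13.3%, which covers counting error only.

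WT libraries had few IgH junctions, and members were a larger share of them. The share was 42.3%, 50% and 41.2% under anti-CD40+IL4 and 52.4%, 58.1% and 66.7% under anti-CD40+TGF-β, above every A150 library. The A150 minus WT difference within stimulations was −41.4 points (exact permutation p = 0.00143, the smallest that 700 arrangements allow). Counting internal deletions alone, it was −30.8 points (exact permutation p = 0.00143). With all junctions as the denominator the direction turned, to 8.13 points higher in A150 (exact permutation p = 0.00143). On that scale A150 libraries gave 7.51% ± 0.825 (SD, n = 3) and 9.98% ± 0.577 (SD, n = 4), and WT libraries gave 1.05% ± 0.0848 (SD, n = 3) and 0.183% ± 0.0324 (SD, n = 3), in each case with anti-CD40+IL4 first. The WT shares rest on 31 to 102 IgH junctions per library.

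Deletion size was taken as the bait end minus the prey end. Of the A150 members, 406 had the prey at or upstream of the bait end and gave no deletion, and 40339 were deletions of 7 to 15853 bp. Median sizes were 729.5, 705 and 680 bp in the anti-CD40+IL4 libraries and 735, 729.5, 715 and 703 bp in the anti-CD40+TGF-β libraries. The groups overlapped, and the means of 705 ± 24.8 bp (SD, n = 3) and 721 ± 14.5 bp (SD, n = 4) were not distinguished (exact permutation p = 0.371, adjusted p = 0.65). Across the 7 A150 libraries the first quartile was 168 ± 17.6 bp, the third quartile 1562 ± 32.9 bp and the 95th percentile 2356 ± 48.9 bp (SD, n = 7). Deletions of over 3000 bp made up 1.37% and those of over 5000 bp 0.174% of the pooled A150 deletions.

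Sizes were counted in classes of unequal width. Deletions of 21 to 50 bp made up 9.77% ± 0.449 (SD, n = 7), those of 501 to 1000 bp 24.4% ± 0.737 and those of 1001 to 2000 bp 24.5% ± 1.19. Per 10 bp of class width, the density was highest at 21 to 50 bp, with 3.26% ± 0.15 of deletions. It was 1.34% ± 0.0819 at 51 to 100 bp, 0.394% ± 0.0381 at 201 to 500 bp, 0.488% ± 0.0147 at 501 to 1000 bp and 0.245% ± 0.0119 at 1001 to 2000 bp (SD, n = 7). The density thus fell with size from 21 to 50 bp on, apart from a slight rise at 501 to 1000 bp. No size class passed a test between the stimulations after adjustment. Deletions of 201 to 500 bp were 13% ± 0.418 (SD, n = 3) for anti-CD40+IL4 and 10.9% ± 0.289 (SD, n = 4) for anti-CD40+TGF-β, and those of 2001 to 4000 bp were 13% ± 0.45 and 11.3% ± 0.407. Each of these gave an exact permutation p = 0.0286, with 0.0643 after adjustment over the 9 size classes, and so did 21 to 50 bp, which was higher for anti-CD40+TGF-β (10.1% ± 0.208 against 9.39% ± 0.405), and the class over 4000 bp (0.311% ± 0.0445 against 0.499% ± 0.0654).

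**Figure D1:**
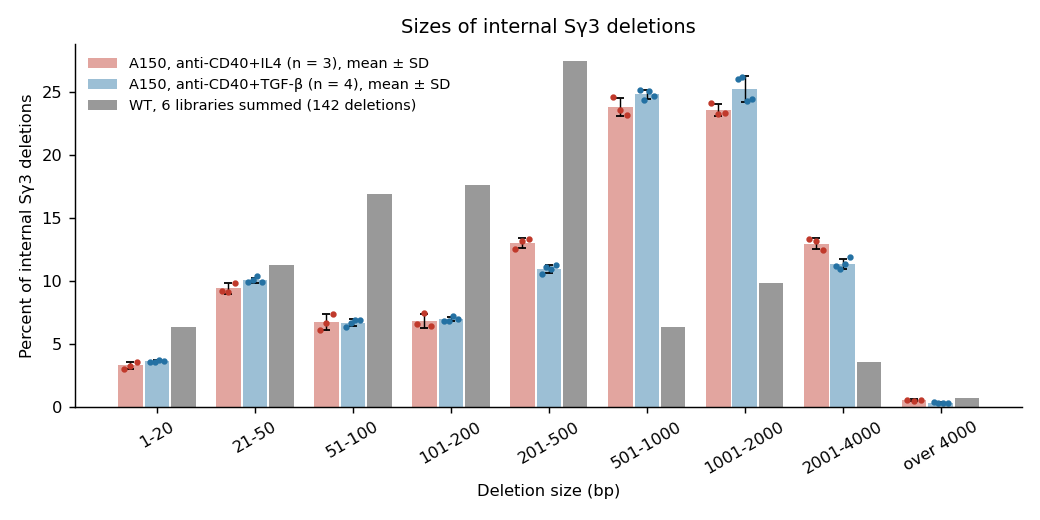
Percent of internal Sγ3 deletions (y axis) in each size class in bp (x axis). Bars are means ± SD of 3 or 4 A150 libraries with 1 point per library, and grey bars sum the 142 deletions of the 6 WT libraries. The classes differ in width, so that bar heights do not compare densities per bp. The highest WT bar is that of 201 to 500 bp, with 39 deletions.

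WT deletions were shorter. Their median sizes were 202, 241.5 and 226 bp under anti-CD40+IL4 and 131, 98 and 120.5 bp under anti-CD40+TGF-β, below every A150 library. The A150 minus WT difference was 543 bp (exact permutation p = 0.00143, adjusted p = 0.00143 over 3 genotype tests, 2 of them added after seeing the data). Of the 142 WT deletions, 113 were under 500 bp and 20 were over 1000 bp. The WT medians rest on 13 to 39 deletions per library.

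Deletion lengths were then set against the repeat length. The net length, which is the number of bases lost once shared and inserted bases are counted, was tested for multiples of 49 bp with a tolerance of 2 bp. An even spread would place 10.2% of lengths there. Because the units printed vary from 47 to 49 bp, multiples of 49 bp drift out of phase with them after a few units, so that this share says little about long deletions. Net length also depends on the bait end, and bait ends were spread from 30 to 210 bp. A periodicity of prey ends therefore need not appear in the lengths. The in-register share was 10.3%, 10.4% and 10.4% in the anti-CD40+IL4 libraries and 9.82%, 10.2%, 9.97% and 11% in the anti-CD40+TGF-β libraries. The 7 libraries lay on both sides of the even share, and the stimulation difference of −0.132 points was within their spread (exact permutation p = 0.771). Internal deletions of Sµ in 7 A150 Sµ-bait libraries gave a like value, with a difference of 0.0553 points (exact permutation p = 0.887 over 1225 arrangements). The 5 most frequent net lengths were 25, 22, 26, 19 and 21 bp, each with 0.454% to 0.498% of deletions.

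The positions of the prey ends, which unlike net lengths do not include the bait end, followed the repeats. In each A150 library, the count of prey ends per base between 300 and 2799 bp was compared with itself after a shift, once a running mean over 101 bp had been subtracted. The autocorrelation at 48 bp ranged from 0.0617 to 0.124 over the 7 libraries, at 97 bp from 0.0632 to 0.148 and at 145 bp from 0.0523 to 0.171. At intermediate shifts of 24 and 121 bp it was below 0 in each library, whereas at 72 bp it ranged from −0.0463 to 0.0664. The same calculation on net lengths gave −0.0289 to 0.003 at 48 bp. These values are descriptions, and the libraries share the sequence on which they rest.

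**Figure D2:**
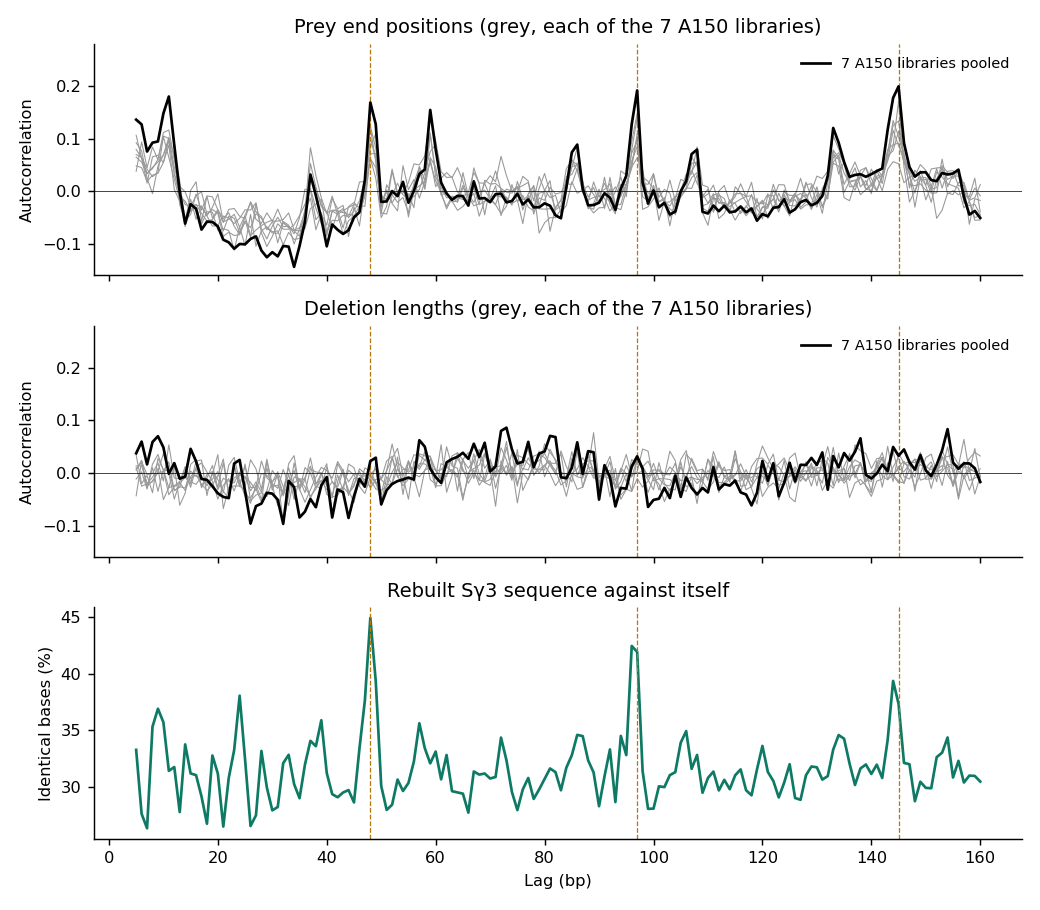
Autocorrelation of prey end positions (top) and of net deletion lengths (middle) and percent of identical bases in the rebuilt Sγ3 sequence (bottom), against the shift in bp. Dashed lines mark 48, 97 and 145 bp, where prey positions show peaks and lengths do not. The sequence peaks at 48, 96 and 144 bp. Grey lines are the 7 A150 libraries and black lines their pool, in which prey positions have a further peak at 59 bp.

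Bait ends lay 30 to 210 bp from the bait start and had a median of 94.3 ± 2.21 bp (SD, n = 7). The most used bait ends were at 46 bp, with 4.22% of deletions, and at 47 bp, with 2.13%. Both belong to the third AGCT of the bait stretch, as its first and second base. The next most used bait ends, at 73, 119 and 38 bp, lie in no AGCT. Bait ends of internal deletions were compared with those of deletional Sγ1 joins (chr12:114558000-114587999) of the same library, whose median was 80.1 ± 3.02 bp (SD, n = 7). The internal deletions used ends 14.1 bp farther downstream, in 7 of 7 libraries (2-sided exact sign-flip p = 0.0156, adjusted p = 0.0208 over 4 tests, a comparison added after seeing the data). The share of bait ends within 60 bp was 29.4% ± 1.51 for internal deletions and 39.1% ± 1.83 for Sγ1 joins, again lower in 7 of 7 libraries (exact sign-flip p = 0.0156). At the AGCT base at 46 bp, the shares were 4.22% ± 0.448 and 4.44% ± 0.573 and were not distinguished (exact sign-flip p = 0.234). The position of the bait end sets how much of the read is left for the prey alignment, and the part of read length in this difference was not tested.

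Prey ends were densest next to the bait and then again in the repeats. The interval chr12:114606130-114606229, 100 to 199 bp from the bait start, held 15.4% ± 1.05 of deletions (SD, n = 7) and lies within the bait stretch printed above. The next interval, chr12:114606030-114606129, held 8.19% ± 0.28, and its minus strand reads as follows with AGCT in capitals.
interval 200 to 299 bp: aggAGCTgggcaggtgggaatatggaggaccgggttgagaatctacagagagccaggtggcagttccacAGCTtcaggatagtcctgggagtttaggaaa
The other 3 named intervals, at 800 to 899, 600 to 699 and 700 to 799 bp, held 6.19% ± 0.367, 5.84% ± 0.487 and 5.10% ± 0.306. Each of these 3 has 4 AGCT tetramers, whereas the 2 intervals with the most prey ends have 3 and 2, against a mean of 3.61 per 100 bp from 200 to 2499 bp. Fewer prey ends were found beyond, with 3.88% ± 0.6 at 2500 to 3999 bp and 0.4% ± 0.116 farther on. At 2500 to 3999 bp the share was 4.47% ± 0.21 (SD, n = 3) for anti-CD40+IL4 and 3.43% ± 0.255 (SD, n = 4) for anti-CD40+TGF-β. Farther on it was 0.51% ± 0.0772 and 0.317% ± 0.0381. The libraries of the stimulations did not overlap in these segments but did in those nearer the bait, and the differences were not tested.

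Prey ends thinned out in 1 stretch within the repeats. Between 1125 and 1274 bp, prey ends made up 0.793% ± 0.172 (SD, n = 7), against 5.03% ± 0.451 in the 150 bp before and 2.73% ± 0.264 in the 150 bp after. In that stretch, 58% of windows of 50 bases occurred more than once in the rebuilt sequence, compared with 0.32% from 500 to 1124 bp and 2.04% from 1275 to 2499 bp. The part of unique alignment in the thinning was not tested.

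**Figure D3:**
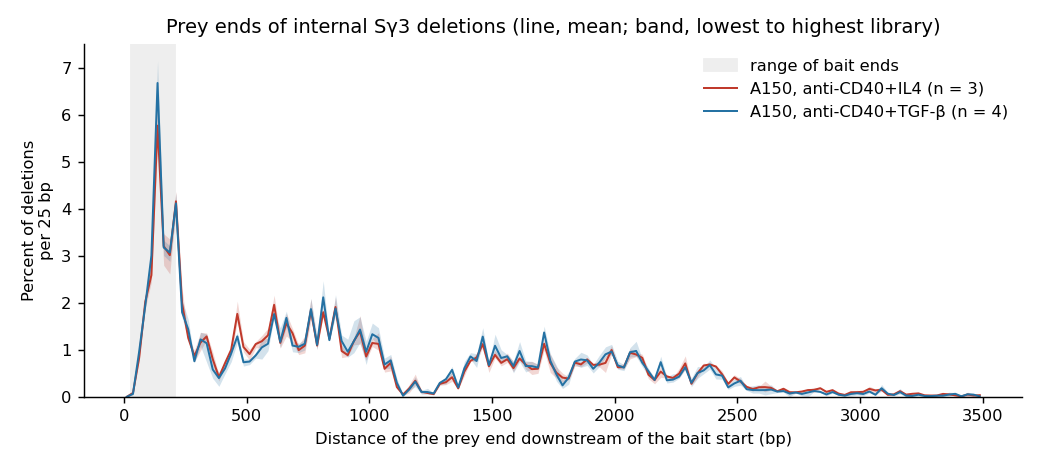
Percent of A150 deletions with the prey end in each 25 bp (y axis) against the distance of the prey end from the bait start in bp (x axis). Lines are means of 3 or 4 libraries, bands run from the lowest to the highest library, and grey marks the range of bait ends from 30 to 210 bp. The drop between 1125 and 1274 bp is seen in both stimulations.

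Ends clustered at AGCT. Direct joins, which share no base and carry no insertion, place each end without ambiguity and were used here. Where breaks at the same base of different AGCT sites are joined, the tetramer is rebuilt and counts as an overlap. Such joins are left out, and the part of this choice in the values per base was not tested. AGCT was searched in the rebuilt minus strand, and being its own reverse complement it marks both strands. Prey ends from 214 to 2499 bp (7905 direct joins) started at the last base of an AGCT, its T, in 16.9% ± 1.47 of cases (SD, n = 7), where 3.67% of positions are such a base. The lowest library had 14.6%. Bait ends finished on the first base, its A, in 8.41% ± 0.406 of direct joins, where 2.76% of positions are such a base. The range of bait ends holds only 5 AGCT sites, and the A of the site at 46 bp alone held 4.22% of the bait ends of all deletions. The other bases of the tetramer each held between 1.67% and 3.73% of prey ends, on average no more than 1.02 times their share of positions. The most used prey ends were counted over all deletions, including those with shared bases, whose end base is ambiguous. Of the 5 most used, those at 139, 206 and 809 bp were the last base of an AGCT, and those at 134 and 129 bp lay in none. The 5 most used beyond the bait stretch, at 809, 750, 761, 954 and 847 bp, were each the last base of an AGCT. The end at 809 bp, position 114605520, belongs to the second AGCT of unit 5 printed above and held 0.405% ± 0.12 of deletions (SD, n = 7).

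**Figure D4:**
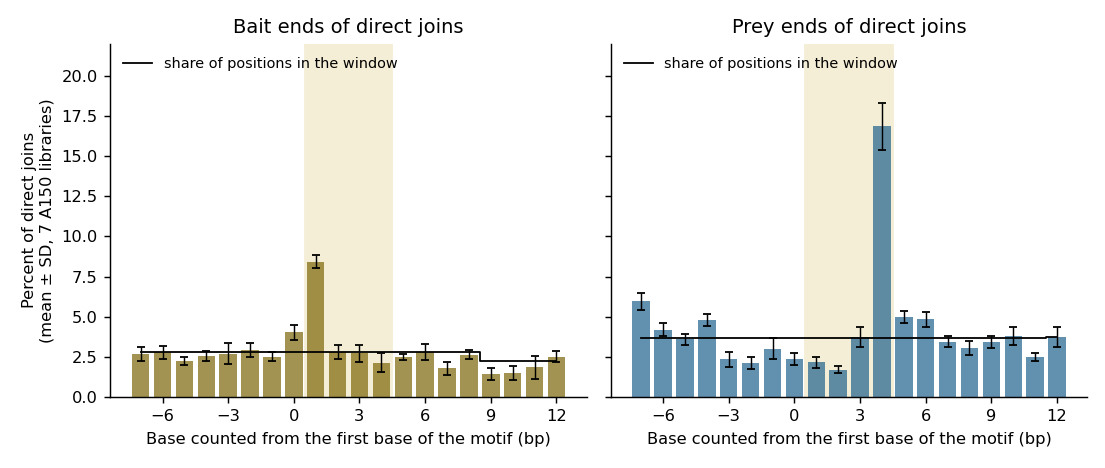
Percent of direct joins (y axis, mean ± SD of 7 A150 libraries) whose bait end (left) or prey end (right) lies at each base counted from the first base of the nearest motifs (x axis, shading marks the 4 motif bases). The black line is the share of positions at that place. Bait ends peak at base 1 with 8.41% and prey ends at base 4 with 16.9%.

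Overlap at the break was counted in read bases that both alignments, of the bait and of the prey, had used. Over the 7 A150 libraries, direct joins made up 27.1% ± 0.524 of deletions, overlaps of 1 to 3 bp 42.6% ± 0.981, overlaps of over 3 bp 10.1% ± 0.399 and insertions 20.3% ± 0.659 (SD, n = 7). An overlap of 1 bp was found in 21.5%, of 2 bp in 13.8%, of 3 bp in 7.24% and of 4 bp in 3.92% of deletions. A single inserted base accounted for 10.1%, and the longest insertion was 30 bp. MH of over 3 bp reached 10.1%, 9.82% and 10.5% in the anti-CD40+IL4 libraries and 9.43%, 10.6%, 10.1% and 9.93% in the anti-CD40+TGF-β libraries, which overlapped (difference −0.0984 points, exact permutation p = 0.886). Direct joins (exact permutation p = 0.914) and insertions (exact permutation p = 0.171) did not separate the stimulations either. For MH of over 3 bp the adjusted p was 0.914.

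Overlap at the break differed with deletion size. Direct joins made up 29.3% of deletions under 500 bp and 25.6% of longer ones, higher among the short ones in 7 of 7 libraries (2-sided exact sign-flip p = 0.0156, adjusted p = 0.0312). MH of over 3 bp went the other way, with 8.89% of short and 10.8% of long deletions in 7 of 7 libraries (exact sign-flip p = 0.0156, adjusted p = 0.0312). Counted as MH of over 4 bp the difference was −0.842 points and did not pass (exact sign-flip p = 0.0625). Over the 12 alternatives in processing, the short minus long difference in MH ranged from −3.07 to −0.842 points. By class, MH of over 3 bp was 8.15% ± 1.37 at 1 to 20 bp, 6.26% ± 0.639 at 21 to 50 bp, 8.47% ± 0.741 at 51 to 100 bp and 11.4% ± 1 at 201 to 500 bp, and lay between 9.98% and 11.4% from there up to 4000 bp (SD, n = 7). Insertions were 18.8% of short and 21.3% of long deletions, with 6 of 7 libraries in this direction (exact sign-flip p = 0.0312, adjusted p = 0.0417). That difference turned to 3.28 points more insertions in short deletions once deletions found in another library were left out. Deletions in register with the 49-bp repeat had MH of over 3 bp in 10.7% and the others in 10.4% of cases (exact sign-flip p = 0.594). The sign of this difference turned under 6 of 13 alternatives, and with net lengths of 30 to 1000 bp alone it was 2.66 points and passed (exact sign-flip p = 0.0312).

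**Figure D5:**
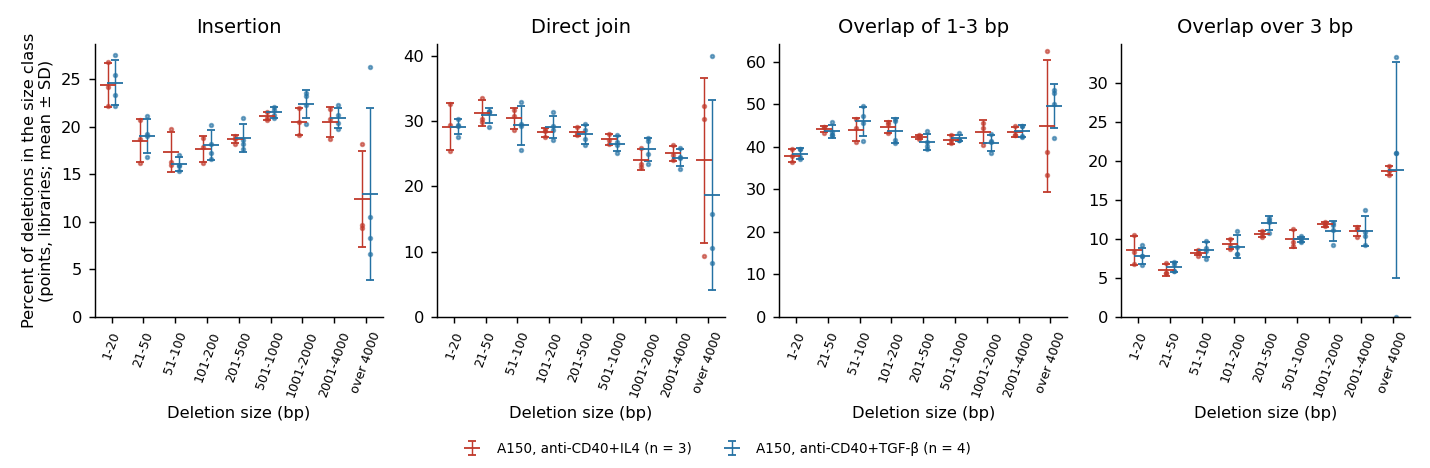
Percent of A150 deletions of each size class (x axis, bp) that were insertions, direct joins, overlaps of 1 to 3 bp or overlaps of over 3 bp (y axes, from 0 and on separate scales). Points are libraries, with mean ± SD of 3 or 4. Over the 7 libraries together, direct joins are highest at 21 to 50 bp and lower in each larger class, and overlaps of over 3 bp are lowest at 21 to 50 bp, while the class over 4000 bp holds 161 deletions in all.

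An overlap counted in this way need not be identical sequence, because the aligner tolerates mismatches and gaps. In A150 deletions with overlaps of 4 to 6 bp, 79.8% had no mismatch or gap in the overlapping bases of either alignment. The share was 42.1% at 7 to 9 bp and 13.9% at 10 bp or more. Counting only overlaps without mismatch or gap, MH of over 3 bp fell to 6.74% ± 0.254 of A150 deletions (SD, n = 7). The difference between short and long deletions was then −1.81 points and passed the test as before (exact sign-flip p = 0.0156).

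WT deletions carried longer overlaps. MH of over 3 bp made up 33.3%, 46.7% and 41% of WT deletions under anti-CD40+IL4 and 69.2%, 53.3% and 33.3% under anti-CD40+TGF-β, above each A150 library. The A150 minus WT difference was −36.1 points (exact permutation p = 0.00143, adjusted p = 0.00143, added after seeing the data). With overlaps free of mismatch or gap the WT share was 37.8% ± 10 (SD, n = 6), and 29 of the 29 WT overlaps of 7 to 9 bp were free of them, against 11 of the 22 WT overlaps of 10 bp or more. Among WT deletions of 201 to 500 bp, 32 of 39 had MH of over 3 bp and 31 of 39 were found in another library. Without deletions found in another library the difference was −4.06 points (exact permutation p = 0.23), with 7 of 60 such WT deletions having MH of over 3 bp.

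Many deletions recurred. A deletion was called shared when its bait end, prey end and overlap were also found in another of the 13 libraries. In A150, the 40339 deletions comprised 33141 distinct ones, 4615 were found in over 1 of the 7 libraries, and 33 were found in each of the 7. Shared deletions made up 28.7% ± 1.26 of a library (SD, n = 7), and 62.9% of the A150 deletions of up to 50 bp against 16% of those over 1000 bp. MH of over 3 bp was found in 18.9% ± 0.847 of shared and 6.49% ± 0.631 of unshared A150 deletions (SD, n = 7). In WT libraries, 44.4%, 66.7% and 43.6% of deletions under anti-CD40+IL4 and 84.6%, 60% and 72.2% under anti-CD40+TGF-β were shared. Sharing was not limited to libraries of the same sequencing run. Of the 96 WT deletions for anti-CD40+IL4, 43 were in an A150 library of the same run and 41 in one of the other run, and of the 46 for anti-CD40+TGF-β the counts were 29 and 25. Among A150 deletions for anti-CD40+IL4, 21.3% were in an A150 library of the other run. The part of repeated events, PCR or carry-over between libraries in this sharing was not tested.

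Among 30626 distinct pairs, 48 occurred in each of the 7 libraries, and the 5 with the most junctions, each with both ends in the bait stretch, are named here. Their sequences are given to show the bases at the break, each as the bait side, the read and the prey side on the minus strand, with 20 bases before and after the overlap and the overlap in capitals. Junction 1 joined bait end 114606207 to prey end 114606194, with 26 A150 junctions (from 2 to 5 per library). An overlap of 9 bp was aligned in 13 of them, of which 5 were free of mismatch or gap and had the read printed. Junction 2 joined 114606216 to 114606170 (16 junctions, 6 with the overlap of 3 bp), junction 3 joined 114606210 to 114606195 (16 junctions, 8 of them direct), and junction 4 joined 114606206 to 114606189 (16 junctions, 9 with the overlap of 3 bp).
junction 1, bait: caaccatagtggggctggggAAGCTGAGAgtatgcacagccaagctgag
junction 1, read: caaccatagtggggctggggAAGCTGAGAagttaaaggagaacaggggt
junction 1, prey: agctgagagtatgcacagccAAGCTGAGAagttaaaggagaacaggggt
junction 2, bait: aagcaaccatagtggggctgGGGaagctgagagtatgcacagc
junction 2, read: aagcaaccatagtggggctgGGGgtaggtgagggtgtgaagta
junction 2, prey: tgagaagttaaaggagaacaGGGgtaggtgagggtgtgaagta
junction 3, bait: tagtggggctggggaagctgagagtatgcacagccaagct
junction 3, read: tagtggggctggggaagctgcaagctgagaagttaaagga
junction 3, prey: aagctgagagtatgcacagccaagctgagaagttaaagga
junction 4, bait: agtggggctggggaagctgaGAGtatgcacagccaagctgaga
junction 4, read: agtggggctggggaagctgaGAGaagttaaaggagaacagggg
junction 4, prey: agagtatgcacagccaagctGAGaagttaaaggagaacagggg
junction 5, read: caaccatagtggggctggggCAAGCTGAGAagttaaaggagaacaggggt
junction 5, prey: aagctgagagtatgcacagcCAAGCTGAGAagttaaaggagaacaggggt
Junction 5 joined 114606207 to 114606195, with 15 A150 junctions. Of these, 11 had an aligned overlap of 10 bp, and 0 of the 11 were free of a mismatch or gap at the break, so that its bait side is not shown and its overlap in capitals matches the prey side only. The read printed for junction 5 was found in 3 of the 11. Computed from the end positions and the overlaps printed, the net length was 21 bp for both junctions 1 and 5. The read printed for junction 5 holds a C before AAGCTGAGA that the read for junction 1 lacks. The computed length is therefore not the number of bases lost in that read. Both overlaps hold the tetramer AGCT.

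The WT deletions found in the most WT libraries, named after their values were seen, had overlaps of 6 to 10 bp. One joined bait end 114606209 to prey end 114606007, a deletion of 202 bp with an overlap of 10 bp. It was found in 6 of 6 WT libraries with 6 junctions and in 7 of 7 A150 libraries with 9. Another joined 114606130 to 114606013, a deletion of 117 bp with an overlap of 7 bp, in 5 of 6 WT and 7 of 7 A150 libraries. Junction 1 above was found in 4 WT libraries, and so was a deletion of 92 bp from 114606217 to 114606125 with an overlap of 6 bp, which 3 A150 libraries held. The WT junctions of these deletions were each aligned without mismatch or gap at the break. The reads printed next come from A150 libraries, where 7 of 9, 6 of 7 and 3 of 3 junctions had them.
deletion of 202 bp, bait: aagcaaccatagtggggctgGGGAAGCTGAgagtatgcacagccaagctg
deletion of 202 bp, read: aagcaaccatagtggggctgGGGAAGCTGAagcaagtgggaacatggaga
deletion of 202 bp, prey: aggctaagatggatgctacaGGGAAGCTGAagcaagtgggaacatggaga
deletion of 117 bp, bait: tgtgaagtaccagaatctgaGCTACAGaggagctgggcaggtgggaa
deletion of 117 bp, read: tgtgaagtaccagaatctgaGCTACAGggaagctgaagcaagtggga
deletion of 117 bp, prey: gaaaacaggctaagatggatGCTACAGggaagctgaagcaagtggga
deletion of 92 bp, bait: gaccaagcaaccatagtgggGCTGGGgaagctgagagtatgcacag
deletion of 92 bp, read: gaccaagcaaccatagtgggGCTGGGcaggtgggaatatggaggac
deletion of 92 bp, prey: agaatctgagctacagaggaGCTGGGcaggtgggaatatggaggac
Of the 112 distinct WT deletions, 14 were found in at least 2 WT libraries and 4 in at least 4. The 6 WT junctions of the deletion of 202 bp stood among 142, whereas its 9 A150 junctions stood among 40339.

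Members with the prey at or upstream of the bait end differed between the genotypes in where they lay. In A150, 350 of 406 had the prey within the bait stretch, 52 lay up to 111 bp past the bait start, 0 lay from 201 to 2000 bp past it and 4 lay farther. In WT, 18 of 33 were within the bait stretch, 4 up to 200 bp past its start and 11 from 201 bp to 1402 bp past it. That DNA lies on the side of the bait where the A150 allele carries the inserted cassette. The part of the cassette in this difference was not tested. These members made up 1% ± 0.138 of the A150 members of a library (SD, n = 7) and from 7.14% to 40.9% of the WT members.

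Internal deletions of Sµ were measured in the A150 Sµ-bait libraries in the same way. Their median size was 651 ± 78 bp (SD, n = 4) for anti-CD40+IL4 and 609 ± 55 bp (SD, n = 3) for anti-CD40+TGF-β, and Sγ3 deletions were 82.9 bp larger (exact permutation p = 0.0139, adjusted p = 0.0278 over 2 tests). With same-numbered libraries taken as pairs the difference did not pass, as given at the end. The long deletions were ordered the other way, since the 95th percentile was 4011 ± 66.9 bp and 3946 ± 71.9 bp for Sµ and 2405 ± 16 bp and 2319 ± 18.5 bp for Sγ3, a comparison that was not tested. The part of the different bait positions in these differences was not tested.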

How the data were processed

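Genomic DNA junctions of 13 Sγ3-bait CSR-HTGTS libraries were analysed, with 7 A150 Sµ-bait libraries for comparison. The authors deposited 1 junction table per library, with positions and strands of both alignments on genome and read, alignment strings, reads and filter marks, and no normalization. The submitters' processing notes name mm9 and Bowtie2, whose version is not given in the sources used here. Libraries were grouped by the genotype, stimulation and bait in their titles. The genotype tag equals the title in each library, whereas a target locus tag reads A150 on Sγ3-bait libraries of both genotypes and WT on Sµ-bait libraries. Members and lists were chosen with earlier results of these data known.

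Each library gave 1 value per measure. Groups were compared by 2-sided exact permutation tests, within stimulation where both were used, and measures within a library by exact sign-flip tests over 7 libraries, with a threshold of 0.05 and Benjamini-Hochberg adjustment within each family (7 stimulation, 4 within-library, 2 bait and 3 genotype tests, and 4 on bait ends, of which the 1 that splits by size is not reported because size is counted from the bait end). With libraries as the replicates, p-values measure the spread between them. Intervals are Wilson intervals at 95%. The procedure was tested on simulated data with known shares. Named items were the 5 bait and prey end pairs in most A150 libraries, the 5 intervals of 100 bp with most prey ends and the 5 most frequent net lengths. The bait primer is not printed, since its deposited text could not be matched to the reads. The sequence was rebuilt from 80671 alignments, and 7 with inconsistent lengths were left out. No genome or annotation of mm9 was used here. Same-numbered libraries of both stimulations were checked for shared deviations over 7 measures (correlations of 0.797, −0.484 and 0.627), which did not pair them. Between A150 libraries of the Sγ3 and Sµ baits the correlations were 0.437, 0.0931 and −0.139 for anti-CD40+IL4. They were −0.0758, −0.488 and 0.267 for anti-CD40+TGF-β. The alternatives are given at the end. Python 3.11.15, numpy 2.4.6, pandas 2.3.3, scipy 1.17.1 and matplotlib 3.10.9 were used.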

Additional observations from a re-analysis of the deposited data

Results flagged for a closer look

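The share of deletions with an insertion was 19.6% in replicate 1 of A150 for anti-CD40+TGF-β and from 20.8% to 21% in the other 3 libraries of its group, a gap that takes up most of the group's range and passes Dixon's 95% limit. The median bait end distance was 94 bp in replicate 4 of the same group and 93 bp in each of the other 3 libraries, which passes the same limit with a difference of 1 bp, since the other 3 medians are equal. Under the assumptions of Dixon's limit, chance sets apart about 1 of 20 groups.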

How the results depend on the processing

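The tests of stimulation, genotype, bait and size within a library were recomputed under the alternatives, and those on bait ends and single size classes were not. The alternatives on mismatches and gaps and the genotype tests of size and MH were chosen after seeing the data. With all junctions as the denominator, the A150 minus WT difference in the share of members was 8.13 points instead of −41.4. Without deletions found in another library, the short minus long difference in insertions was 3.28 points, the in-register minus out-of-register difference in MH −0.626 points, the Sγ3 minus Sµ difference in the in-register share −0.0823 points and the A150 minus WT difference in MH −4.06 points. The in-register difference in MH was −0.0709 points with MH over 4 bp, −0.00948 with a tolerance of 1 bp, −0.394 with 4 bp, −0.846 with a repeat of 48 bp, −0.116 for deletions without mismatch or gap at the break and 2.66 (exact sign-flip p = 0.0312) for net lengths of 30 to 1000 bp. The in-register share of Sγ3 minus Sµ was −0.0700 points with a repeat of 48 bp and −0.0813 for net lengths of 30 to 1000 bp. MH of over 4 bp in short minus long deletions gave −0.842 points. Among anti-CD40+TGF-β minus anti-CD40+IL4 differences, the share under 200 bp was 1.09 points and that under 1000 bp 0.0766 points (−0.942 under 500 bp), MH without mismatch or gap was 0.0468 points, and direct joins with minimum alignment lengths were −0.201 points. The causes were not tested.

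With the replicate block the share of members differed between stimulations by 5.33 points (exact p = 0.25, the smallest being that of 8 arrangements), Sγ3 minus Sµ gave −0.0747 points in register and 68.7 bp in median size (exact p = 0.0625), and no other call changed. The numbers share only a label here.

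With each library left out in turn, A150 minus WT differences ranged from −43.1 to −39.5 points (share of IgH), from 537 to 549 bp (median size) and from −40.7 to −31.8 points (MH). The stimulation differences ranged from 4.36 to 5.33 points (share of IgH, which with 6 libraries cannot pass, the exact p being from 0.0667 to 0.1), 3.38 to 28.1 bp (median size), −1.83 to −0.258 points (under 500 bp), −0.299 to 0.0969 (MH), −0.231 to 0.539 (direct joins), 0.375 to 0.999 (insertions) and −0.368 to 0.0104 (in register). Short minus long deletions gave −2.05 to −1.69 points (MH), 3.47 to 3.86 (direct joins) and −2.89 to −2.24 (insertions, exact p up to 0.0625 without 6 of the 7 libraries). In register minus out of register gave 0.00732 to 0.621 points, and Sγ3 minus Sµ gave −0.118 to 0.282 points and 65.7 to 98.7 bp. WT values rest on 13 to 39 deletions per library, which limits each WT share.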
